A study of Mus musculus with 9 samples.

Results

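The 8 genes described here encode the receptors of mouse for the prostanoids: Tbxa2r for thromboxane A2, Ptgir for prostacyclin, Ptger1 to Ptger4 for prostaglandin E2, Ptgfr for prostaglandin F2alpha and Ptgdr for prostaglandin D2. They were chosen by name, with earlier results of these data known, from the 49671 genes counted in each library, and all 8 were found. The counts come from polyadenylated RNA of left ventricle, from wild-type mice (WT) and from dSG knockout mice (KO), where dSG is the usual short name of delta-sarcoglycan, encoded by Sgcd. Each genotype was given vehicle or ifetroban, an antagonist of the thromboxane receptor. The KO ifetroban group had 3 libraries and the other groups (KO vehicle, WT ifetroban and WT vehicle) 2 each, with 1 file of counts per library. The labels used here give no age, sex, strain, dose or duration, and nothing in them says that each library is another animal. The p-values below therefore weigh differences against the scatter among libraries, and part of that scatter may be technical.

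Prostanoids are short-lived lipids made from arachidonic acid by cyclooxygenases and then by a synthase for each product, and they act near the cell that made them. Their receptors are G-protein-coupled receptors of the cell surface. The receptors for thromboxane and prostaglandin F2alpha act mainly through Gq and raise calcium, and the thromboxane receptor drives platelet aggregation and vasoconstriction. The receptors for prostacyclin and prostaglandin D2, and those for prostaglandin E2 encoded by Ptger2 and Ptger4, act through Gs and raise cyclic AMP, so that prostacyclin opposes thromboxane in vessels and platelets. The Ptger3 product acts mainly through Gi, and that of Ptger1 raises calcium.

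Tbxa2r, the target of the drug, lies on chromosome 10 at 81328731 to 81335172 on the plus strand of GRCm38, with 1919 bases of exon. Ptgir lies on chromosome 7 at 16906490 to 16910905, Ptger4 on chromosome 15 at 5206661 to 5244187, and Ptgfr on chromosome 3 at 151796502 to 151837630. Ptger1 lies on chromosome 8 at 83666678 to 83672753, Ptger3 on chromosome 3 at 157566892 to 157645888, and Ptgdr and Ptger2 near each other on chromosome 14, at 44851235 to 44859375 and 44988195 to 45003820. The 250 bases before the transcription start are shown for the 3 receptors with the highest levels and for Ptgdr, which had no read, from RefSeq on GRCm38.p6. Capitals mark GGGCGG or its reverse complement CCGCCC, the core letters of a GC box.

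Tbxa2r (chr10:81328453-81328702, plus strand): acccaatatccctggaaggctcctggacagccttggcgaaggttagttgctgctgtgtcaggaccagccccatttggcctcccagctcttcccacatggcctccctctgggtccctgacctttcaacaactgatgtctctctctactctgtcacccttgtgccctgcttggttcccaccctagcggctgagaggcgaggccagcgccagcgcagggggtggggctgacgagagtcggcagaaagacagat
Ptgir (chr7:16906240-16906489, plus strand): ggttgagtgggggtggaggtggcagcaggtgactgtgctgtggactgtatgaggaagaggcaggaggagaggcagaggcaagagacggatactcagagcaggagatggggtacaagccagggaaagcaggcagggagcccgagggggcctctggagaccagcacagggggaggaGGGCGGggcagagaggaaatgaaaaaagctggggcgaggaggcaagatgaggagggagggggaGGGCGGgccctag
Ptger4 (chr15:5244188-5244437, minus strand): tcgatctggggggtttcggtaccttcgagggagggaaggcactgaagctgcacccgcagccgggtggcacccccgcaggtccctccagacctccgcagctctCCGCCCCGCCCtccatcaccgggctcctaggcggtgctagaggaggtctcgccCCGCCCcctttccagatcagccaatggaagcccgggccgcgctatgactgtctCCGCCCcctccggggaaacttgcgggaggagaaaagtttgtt
Ptgdr (chr14:44859376-44859625, minus strand): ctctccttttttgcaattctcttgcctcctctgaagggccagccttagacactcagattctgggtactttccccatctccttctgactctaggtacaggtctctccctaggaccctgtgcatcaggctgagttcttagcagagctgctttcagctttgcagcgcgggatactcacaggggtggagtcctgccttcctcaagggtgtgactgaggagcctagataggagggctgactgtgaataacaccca

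The table of promoters held 7 of the 8 receptors. GGGCGG was found on either strand in 4 of these, at 2 places for Ptgir, 3 for Ptger3, 4 for Ptger4 with 1 pair overlapping, and 1 for Ptgfr, and in 32.7% of all 32851 windows of this length. Tbxa2r, Ptger2 and Ptgdr had none. Tbxa2r had 2 windows in the source, and only the one nearest its annotated start was searched and shown. TATAAA was found on neither strand in any of the 7, and in 12.4% of all windows. The windows of Ptger3 and Ptger4 held 21 and 19 CpG dinucleotides, those of Tbxa2r, Ptgir and Ptgfr 7, 5 and 10, and those of Ptger2 and Ptgdr 3 and 2, beside a median of 6 over all windows. Ptger3, the window with the most CpG, had few reads in these libraries.

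Each library held 21299748 to 31394548 counts assigned to genes. The targeted gene, Sgcd, had 7.49 to 18.5 CPM (counts-per-million units, on TMM-scaled library sizes) in the KO libraries and 28.9 to 33.1 CPM in 3 WT libraries, but 11.1 CPM in the library labelled WT vehicle replicate 1, so Sgcd went against the label of that library, and each direction drawn below from WT vehicle includes it. KO vehicle replicate 1 stood apart from the other libraries on the first principal component (84.4, others -38.2 to 34.2), which held 47.5% of the variance. Counts of long transcripts were reduced against those of short ones in 4 libraries, KO ifetroban replicate 1, both of KO vehicle and the one labelled WT vehicle replicate 1, and raised in the other 5. Among KO libraries, Sgcd was at 7.49, 12.1 and 9.77 CPM in those with long transcripts reduced, and at 16.4 and 18.5 CPM in the others. Markers of cardiomyocytes were abundant in every library, and those of atrium summed to 1.38 to 2.62 CPM. In the library labelled WT vehicle replicate 1, macrophage and fibroblast markers summed to 207.4 and 666.9 CPM, below every KO library (lowest 272.2 and 777.0). Its neutrophil and cardiomyocyte sums, 10.5 and 36820 CPM, lay within the KO range. Why its Sgcd level was low was not tested.

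Per length, 4 receptors made up nearly all of the receptor signal. In TPM (transcripts-per-million units, reads divided by exonic length and scaled to the same total in each library), Ptgir had a mean of 4.84 over the 9 libraries, Tbxa2r 4.06, Ptger4 2.42 and Ptgfr 1.19. These levels lay near the middle of the range of genes: 62.0% of the 21811 protein-coding genes were lower than Ptgir and 48.2% were lower than Ptgfr. Ptgir lay between 3.15 and 7.30 TPM and Tbxa2r between 2.43 and 5.74 TPM, with Ptgir the higher in 7 of 9 libraries, so these 2 did not differ beyond their spread. Ptger4 lay between 1.41 and 3.65 TPM, under Tbxa2r in 8 of 9 libraries. Ptgfr lay between 0.249 and 1.94 TPM and under Ptger4 in 9 of 9. Where the longest transcript was taken as the length, Ptger4 came to 3.62 TPM and was above Tbxa2r in 5 of 9 libraries, so the order of these 2 depends on the length used.

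**Figure D1:**
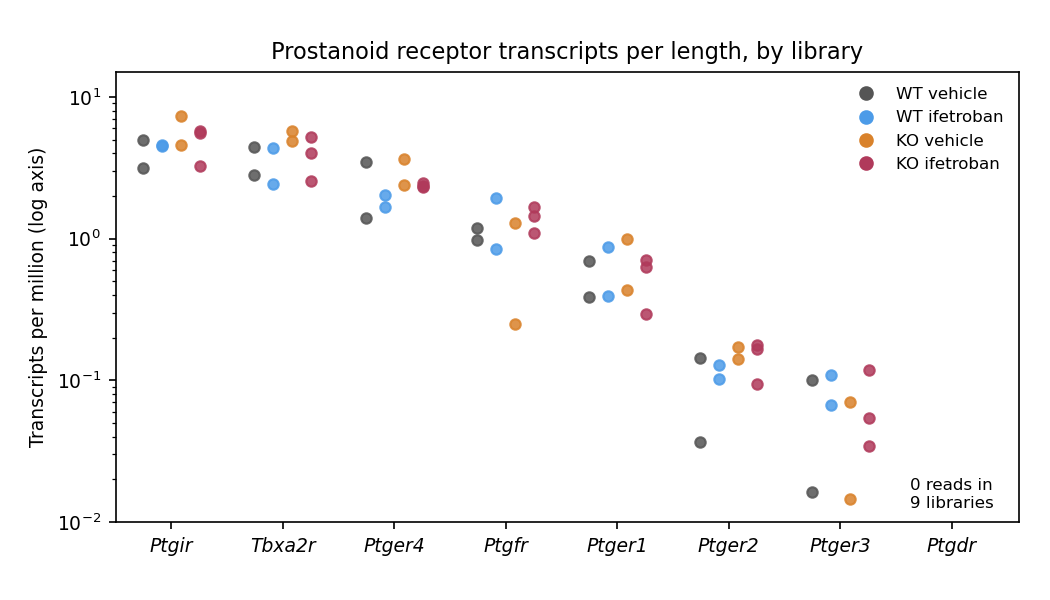
Level of each prostanoid receptor in TPM (log axis) in 9 libraries, coloured by group; each point is 1 library. Ptgir and Tbxa2r overlap at the top, Ptger2 and Ptger3 lie below 0.2, the reads of Ptger1 are uncertain, and Ptgdr has no read.

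The counts of Ptger1 were uncertain. It had 22 and 41 reads in WT vehicle, 24 and 50 in WT ifetroban, 55 and 29 in KO vehicle, and 40, 21 and 36 in KO ifetroban, 318 in all (95% Poisson interval 284 to 355) in the column of counts by strand. In the column without regard to strand it had 46 reads in all 9 libraries. It would come to 0.603 TPM by the first and 0.0855 TPM by the second, so neither is taken as its level. Whether these reads come from Ptger1 transcripts cannot be told from the counts given here. It passed the filter on low counts and is part of the counts of tested receptors below, but its differences between groups are not described. Tbxa2r and Ptgir share no exonic base with another gene. On the other strand, the coding gene Ttc33 shares 1.23% of the exonic bases of Ptger4, and the pseudogene Gm15937 shares 15.3%. Gm43618, also on the other strand, shares 4.85% of those of Ptgfr. Ptger4 had 1580 reads on its own strand and 705 on the opposite one, or 44.6%. This share was 3.78% for Tbxa2r, 2.88% for Ptgir and 2.21% for Ptgfr.

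Ptger2 and Ptger3 were barely detected and Ptgdr not at all. Ptger2 had 2 and 8 reads in WT vehicle, 6 and 7 in WT ifetroban, 9 and 9 in KO vehicle, and 5, 12 and 9 in KO ifetroban, 67 in all, which is 0.300 CPM (95% Poisson interval 0.233 to 0.381). Ptger3, the Gi-coupled receptor, had 6 and 1 reads in WT vehicle, 7 and 4 in WT ifetroban, 4 and 1 in KO vehicle, and 2, 4 and 7 in KO ifetroban, 36 in all or 0.161 CPM (0.113 to 0.223). At these depths neither passed the filter on low counts, so no test of a difference between groups is given for either. Ptger2 was fitted in some alternatives, such as that without this filter, and these fits are left out. The groups of Ptger2 and of Ptger3 overlapped in all 4 comparisons of 2 groups, with 1 exception. Both KO vehicle libraries had higher Ptger2 CPM than both WT vehicle libraries. The same held for 16.8% of the genes that passed the filter on low counts, which Ptger2 did not pass. Ptgdr had 0 reads in each of 9 libraries, which allows up to 0.0135 CPM over all of them together and 0.0920 to 0.154 CPM in any 1. Ptgdr2, the other receptor for prostaglandin D2, which belongs to another receptor family, had 23 reads in all. Intervals and limits cover counting error only.

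Tests across all genes were made with edgeR after a filter on low counts, which 5 of the 8 receptors passed (Tbxa2r, Ptgir, Ptger1, Ptger4 and Ptgfr). Without drug, the knockout ventricle had higher Tbxa2r and Ptgir values than the wild type in each library, but neither difference passed the test. Tbxa2r was at 2.93 and 3.56 CPM in WT vehicle, 3.6 and 1.94 in WT ifetroban, 4.42 and 5.32 in KO vehicle, and 3.69, 1.96 and 4.03 in KO ifetroban. Both KO vehicle libraries were above the other 7. Its log2 fold change from WT vehicle to KO vehicle was 0.59 ± 0.40 (SE, edgeR adjusted p = 0.545; 95% interval -0.31 to 1.48), from 3.24 ± 0.445 to 4.87 ± 0.637 CPM (SD, n = 2 each). With offsets for the length trend, this change of Tbxa2r was 0.45. Ptgir, the prostacyclin receptor, was at 5.65 and 6.88 CPM in WT vehicle, 6.44 and 6.34 in WT ifetroban, 11.4 and 7.39 in KO vehicle, and 5.24, 7.58 and 7.52 in KO ifetroban. The highest value was that of KO vehicle replicate 1, and the other 8 libraries lay within 5.24 and 7.58 CPM. Its log2 fold change was 0.58 ± 0.28 (edgeR adjusted p = 0.418; 95% interval -0.04 to 1.20), and 0.24 without KO vehicle replicate 1. These 2 of 5 tested receptors did not overlap between the groups, where 16.8% of all tested genes were higher in KO vehicle without overlap and 18.2% were lower, the latter with 0 of the 5 receptors.

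Ptger4 and Ptgfr overlapped between KO vehicle and WT vehicle, and the fold change of each turned sign when 1 library was left out. Ptger4, a Gs-coupled receptor for prostaglandin E2, was at 12.4 and 3.90 CPM in WT vehicle, 5.83 and 4.64 in WT ifetroban, 11.4 and 7.66 in KO vehicle, and 7.43, 6.26 and 6.56 in KO ifetroban. The highest and the lowest value were both in WT vehicle, with the library labelled WT vehicle replicate 1 the highest. The log2 fold change from WT vehicle to KO vehicle was 0.23 ± 0.44 (edgeR adjusted p = 0.843), 1.26 with the library labelled WT vehicle replicate 1 left out and -0.39 without WT vehicle replicate 2. Ptgfr, the Gq-coupled receptor for prostaglandin F2alpha, was at 3.54 and 3.36 CPM in WT vehicle, 5.68 and 2.38 in WT ifetroban, 0.791 and 4.21 in KO vehicle, and 3.6, 4.54 and 3.92 in KO ifetroban. The low value was that of KO vehicle replicate 1, from 17 reads against 60 to 148 in the other libraries. The log2 fold change was -0.45 ± 0.62 (edgeR adjusted p = 0.776), and 0.29 when KO vehicle replicate 1 was left out. When KO vehicle replicate 2 was left out it was -2.12 (edgeR adjusted p = 0.0460), a fit that leaves KO vehicle replicate 1 as the only library of its group. Of the 5 tested receptors 0 were called in edgeR, 0 had an unadjusted p under 0.05 and DESeq2 called 0, where edgeR called 0.0524% of the 15261 tested genes (adjusted p under 0.05, as throughout).

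**Figure D2:**
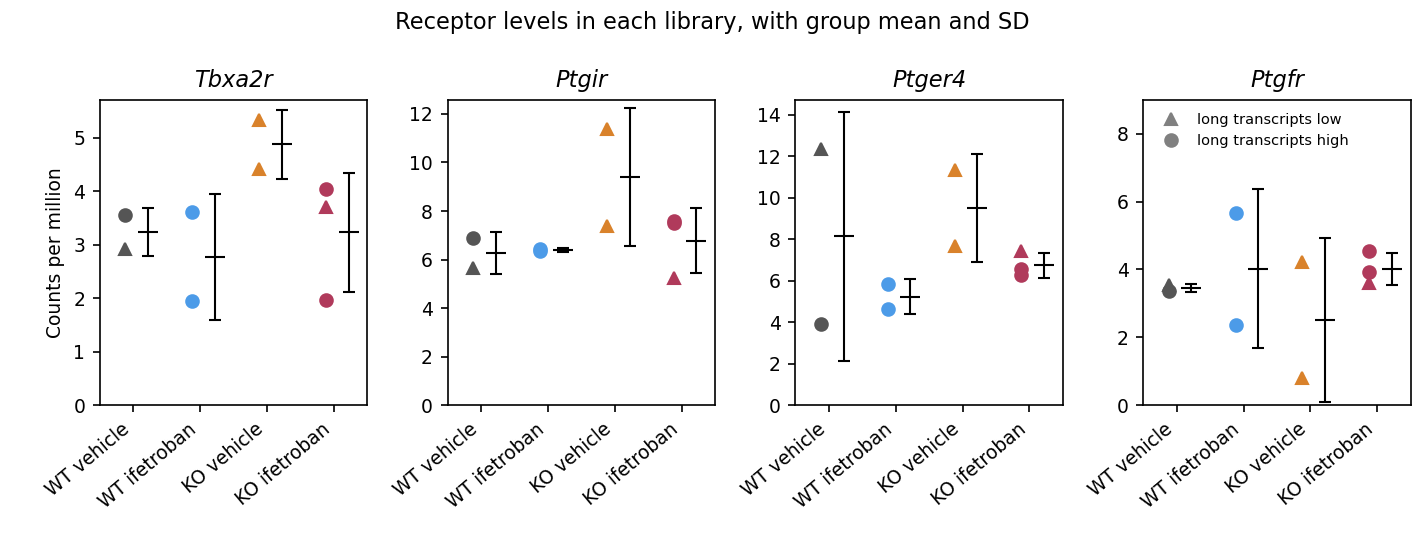
CPM of 4 receptors in each library (points) with the group mean and SD (bar and whiskers; n = 2, and 3 for KO ifetroban); triangles are libraries with long transcripts low, circles those with them high. Both KO vehicle libraries have the highest Tbxa2r values, 4.42 and 5.32, while for Ptgir, Ptger4 and Ptgfr single libraries set the extremes.

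Under ifetroban no difference between genotypes passed the test, and the intervals were wide. Tbxa2r was at 2.77 ± 1.18 CPM in WT ifetroban (SD, n = 2) and 3.23 ± 1.11 in KO ifetroban (n = 3), a log2 fold change of 0.21 ± 0.37 (edgeR adjusted p = 0.979; 95% interval -0.62 to 1.04), which was 0.73 without WT ifetroban replicate 1 and -0.17 with replicate 2 of that group left out instead. Ptgir was at 6.39 ± 0.0738 and 6.78 ± 1.34 CPM, with a log2 fold change of 0.09 ± 0.25 (interval -0.48 to 0.66), the narrowest interval of the 4 receptors. Ptgfr, at 4.03 ± 2.33 and 4.02 ± 0.478 CPM, had a log2 fold change of -0.0012 ± 0.554 (edgeR adjusted p = 0.9995). Ptger4 was at 5.23 ± 0.845 and 6.75 ± 0.611 CPM, without overlap, and had a log2 fold change of 0.36 ± 0.41 (edgeR adjusted p = 0.979), where 16% of tested genes were higher without overlap and 12.9% lower (0 of 5 receptors). No tested receptor was called (0 of 5 in edgeR, 0 with an unadjusted p under 0.05, 0 in DESeq2), where edgeR called 0.0131% of the tested genes.

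In the knockout, the target of the drug had lower values with ifetroban than with vehicle, within the error of the test. Tbxa2r was at 3.23 ± 1.11 CPM with ifetroban and 4.87 ± 0.637 with vehicle, and all 3 ifetroban libraries lay below both vehicle libraries, with a log2 fold change of -0.60 ± 0.36 (edgeR adjusted p = 0.688; 95% interval -1.41 to 0.21). This was -0.33 without KO ifetroban replicate 2, the library with 1.96 CPM. Both KO vehicle libraries had long transcripts low, and of the ifetroban group only replicate 1 did. The Tbxa2r change was -0.44 with offsets for the length trend and -0.56 with a term for its class. The part of this trend in the change was not tested further. Ptgir was at 6.78 ± 1.34 and 9.39 ± 2.84 CPM, with overlap, and its log2 fold change was -0.47 ± 0.25 (interval -1.03 to 0.10), which was -0.12 without KO vehicle replicate 1. Ptger4, at 6.75 ± 0.611 and 9.51 ± 2.61 CPM, did not overlap and was at -0.49 ± 0.40, and at -0.19 without KO vehicle replicate 1. Ptgfr, at 4.02 ± 0.478 and 2.5 ± 2.42 CPM, was at 0.67 ± 0.57, and at -0.06 without KO vehicle replicate 1. Tbxa2r and Ptger4 were thus 2 of 5 tested receptors lower without overlap, where 7.59% of tested genes were lower and 8.37% higher (0 of 5 receptors). By the test, 0 of 5 receptors were called in edgeR, 0 had an unadjusted p under 0.05 and DESeq2 called 0, where edgeR called 0% of the tested genes.

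In the wild type, receptor values with ifetroban and vehicle overlapped for each of the 5 tested receptors, where 15% of tested genes were higher without overlap and 16.4% lower. Tbxa2r was at 3.24 ± 0.445 CPM with vehicle and 2.77 ± 1.18 with ifetroban, a log2 fold change of -0.23 ± 0.41 (edgeR adjusted p = 0.999; 95% interval -1.14 to 0.68). It was -0.74 without WT ifetroban replicate 1 and 0.15 with replicate 2 of that group left out instead. The interval therefore allows a change of more than 1 on the log2 scale downward. Ptgir was at 0.03 ± 0.28, Ptgfr at 0.22 ± 0.61 and Ptger4 at -0.63 ± 0.45, the last at 0.43 when the library labelled WT vehicle replicate 1 was left out. Here too edgeR called 0 of 5 receptors (0 with an unadjusted p under 0.05, 0 in DESeq2) and 0% of the tested genes. Whether the effect of the drug on Tbxa2r depended on genotype was tested by the interaction, at -0.37 ± 0.55 (edgeR adjusted p = 0.9998; 95% interval -1.59 to 0.85), with 0 of 5 receptors called (0 with an unadjusted p under 0.05, 0 in DESeq2) and 0% of the tested genes.

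**Figure D3:**
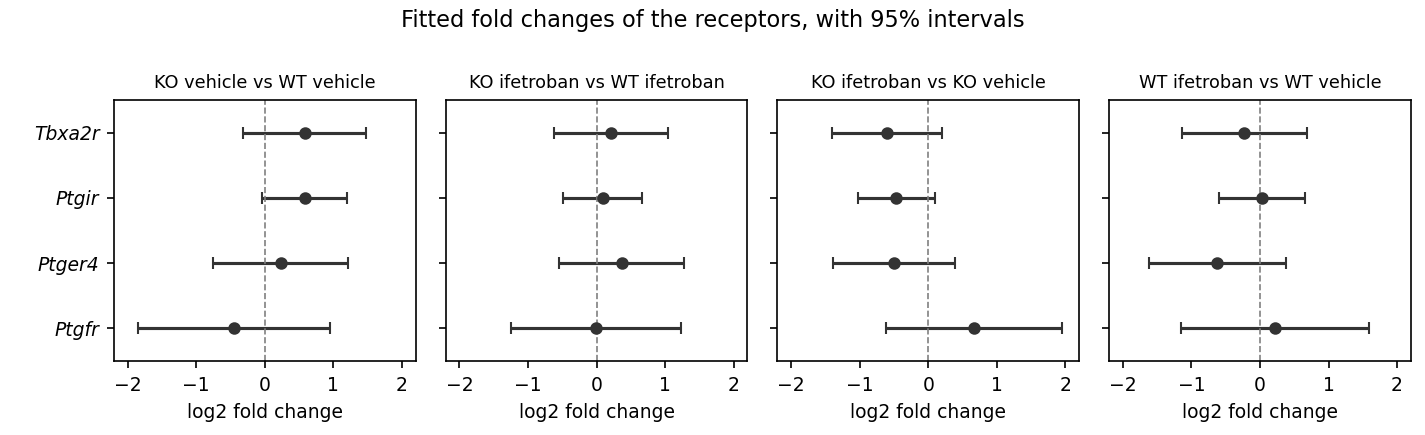
Log2 fold changes of 4 receptors fitted by edgeR in the 4 comparisons of 2 groups, with 95% intervals. Each interval spans 0, and the intervals of Ptgfr are the widest.

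Averaged over both treatments, the knockout effect was 0.40 ± 0.27 on the log2 scale for Tbxa2r (edgeR adjusted p = 0.474; 95% interval -0.21 to 1.01) and 0.33 ± 0.19 for Ptgir (edgeR adjusted p = 0.395; interval -0.09 to 0.76). It was 0.30 ± 0.30 for Ptger4 and -0.23 ± 0.42 for Ptgfr, and edgeR called 0 of 5 receptors (0 with an unadjusted p under 0.05, 0 in DESeq2) where it called 0.537% of the tested genes. The values of all KO and all WT libraries overlapped for each of the 5, where 5.03% of tested genes were higher in all KO libraries and 2.27% lower. The part of the length trend of the libraries in these values was not tested beyond the following. Within the libraries with long transcripts low (3 KO, 1 WT), the only WT library is the one labelled WT vehicle replicate 1, whose Sgcd goes against its label, so differences in that class rest on it and have no test. There the mean log2 CPM of Tbxa2r was 0.58 higher in KO, and within those with long transcripts high (2 KO, 3 WT) it was 0.05 lower. For Ptgir the differences were 0.43 and 0.20 in the same direction. For Ptger4 they were -0.51 and 0.43, and for Ptgfr -0.60 and 0.23. With a term for the class of libraries, the averaged effect on Tbxa2r was 0.37 and that on Ptgir 0.50. Leaving out single libraries moved the averaged effect on Tbxa2r to 0.21 (WT ifetroban replicate 2) and 0.65 (WT ifetroban replicate 1), that on Ptgir to 0.16 (KO vehicle replicate 1), that on Ptger4 to 0.81 (the library labelled WT vehicle replicate 1) and that on Ptgfr to -1.06 (KO vehicle replicate 2). The averaged ifetroban effect was -0.41 ± 0.27 for Tbxa2r (edgeR adjusted p = 0.624; interval -1.02 to 0.20), -0.22 ± 0.19 for Ptgir, -0.56 ± 0.30 for Ptger4 and 0.45 ± 0.42 for Ptgfr. With the class term that on Ptgir was -0.47 and that on Ptger4 0.02. Single libraries moved this effect too: Tbxa2r went to -0.22 without WT ifetroban replicate 2 and -0.67 with replicate 1 left out instead, and Ptgir to -0.0459 without KO vehicle replicate 1 and -0.35 with replicate 2 left out instead. Ptger4 went to -0.0245 once the library labelled WT vehicle replicate 1 was left out, and Ptgfr to 0.0712 without WT ifetroban replicate 1 and 1.29 without KO vehicle replicate 2. All ifetroban and all vehicle libraries overlapped for each of the 5 (0.242% of tested genes were higher without overlap and 0.328% lower). Again 0 of 5 receptors (0 with an unadjusted p under 0.05, 0 in DESeq2) and 0% of the tested genes were called by edgeR.

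Marker levels of cell types that may carry these receptors are given beside their values. In the averaged genotype effect edgeR called 0 of the tested platelet, smooth muscle, macrophage, endothelial, pericyte or cardiomyocyte markers. Of these lists in turn, 2 of 5, 4 of 6, 6 of 7, 0 of 6, 1 of 5 and 2 of 6 had an unadjusted p under 0.05. So did 16.5% of all tested genes. By edgeR 1 of 6 fibroblast and 2 of 5 neutrophil markers were called, all higher in KO, beside 0.537% of all tested genes. In these 2 lists, 1 of 6 and 5 of 5 had an unadjusted p under 0.05. Tbxa2r is abundant in platelets, and the 7 platelet and megakaryocyte markers summed to 13.3 to 23.2 CPM in WT vehicle, 10.5 to 13.3 in WT ifetroban, 20.8 to 67.1 in KO vehicle and 18.3 to 32.7 in KO ifetroban. Of these, 5 were tested. All 5 were positive in KO vehicle against WT vehicle (median log2 fold change 1.62), and all 5 were negative in KO ifetroban against KO vehicle (median -1.30). None was called in edgeR in either comparison. The highest sum, 67.1 CPM, was that of KO vehicle replicate 1, whose Tbxa2r level was under that of KO vehicle replicate 2 (20.8 CPM of platelet markers). The 6 smooth muscle markers summed to 290.1 to 412.7 CPM in WT vehicle, 342.2 to 349.4 in WT ifetroban, 369.8 to 533.7 in KO vehicle and 307.2 to 360.7 in KO ifetroban. They differed in direction: 4 were positive and 2 negative in KO vehicle against WT vehicle, and 3 and 3 in the averaged genotype effect. The 7 macrophage markers, whose cells carry Ptger4, summed to 161.0 to 207.4 CPM in the WT libraries and 272.2 to 340.8 in the KO libraries. The 6 cardiomyocyte markers summed to 36820 to 42820 CPM in the WT libraries, 25930 to 32150 in KO vehicle and 31560 to 39150 in KO ifetroban. In KO vehicle against WT vehicle all 6 were negative (median log2 fold change -0.38), and 0 were called in edgeR (2 with an unadjusted p under 0.05). The 6 fibroblast markers summed to 666.9 to 697.6 CPM in the WT and 777.0 to 1116 in the KO libraries, the 5 neutrophil markers to 1.82 to 10.5 and 9.15 to 23.5, the 6 endothelial markers to 650.4 to 960.8 and 716.5 to 922.5, and the 5 pericyte markers to 479.7 to 819.1 and 439.1 to 764.9. Liver markers were at 76.3 CPM in KO vehicle replicate 1 and at most 6.22 in the other libraries, and the lists for T and NK cells, B cells, mast cells, mesothelium and adipocytes each summed to at most 15.9 CPM in any library. No list had a marker at 0 in all libraries, and the part of these cells in the receptor values was not tested. In bulk tissue, fewer cells of a type and less RNA per cell cannot be told apart.

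Of the other genes of the pathway, several that make prostanoids had higher values in the knockout, short of a call in the main edgeR fit. In the averaged genotype effect, 0 of 61 tested genes of the 5 pathway lists were called in edgeR, 14 had an unadjusted p under 0.05 and DESeq2 called 7, where 16.5% of all tested genes had such a p and DESeq2 called 4.94%. Of 13 genes of prostanoid synthesis 9 were positive, with a median of 0.28 beside -0.0036 over all tested genes, and 5 had an unadjusted p under 0.05 (16.5% of all tested genes). Tbxas1, which makes the ligand of Tbxa2r, was at 1.64 and 2.9 CPM in WT vehicle, 2.11 and 1.86 in WT ifetroban, 6.75 and 3.73 in KO vehicle, and 5.05, 3.53 and 4.54 in KO ifetroban. All 5 KO libraries were above all 4 WT libraries, the same pattern as in 5.03% of all tested genes. Its averaged genotype effect was 1.16 ± 0.26 (edgeR adjusted p = 0.0787; DESeq2 adjusted p = 0.00275). Ptgis, which makes the ligand of Ptgir, was at 16.1 ± 3.83 CPM in WT vehicle, 14.2 ± 4.63 in WT ifetroban, 49.8 ± 22.8 in KO vehicle and 24.2 ± 5.40 in KO ifetroban, with an averaged effect of 1.20 ± 0.25 (edgeR adjusted p = 0.0692; DESeq2 adjusted p = 0.000236). Pla2g4a, the phospholipase that frees arachidonic acid, was at 0.88 ± 0.19 (edgeR adjusted p = 0.0774, DESeq2 adjusted p = 0.00466). In the alternative fit with the replicate block, edgeR called Ptgis (adjusted p = 0.00806) and Pla2g4a (adjusted p = 0.0455). Without the filter on low counts, edgeR called Tbxas1, Ptgis and Pla2g4a. With ifetroban, 12 of the 13 synthesis genes were negative in the averaged effect, with a median of -0.22 beside -0.03 over all tested genes and 0 called by edgeR (3 with an unadjusted p under 0.05, as had 5.11% of all tested genes, and 0 in DESeq2, which called 0.00655%). Ptgds, prostaglandin D synthase, was at -0.71 ± 0.20 and Ptgs2, the inducible cyclooxygenase, at -1.80 ± 0.73, the latter at 0.40 with KO vehicle replicate 1 left out together with the library labelled WT vehicle replicate 1.

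Genes of transport, coupling and desensitisation were likewise short of a call in the main edgeR fit. In the averaged genotype effect, 2 of 5 genes of transport and inactivation and 0 of 17 of Gq coupling had an unadjusted p under 0.05. So did 5 of 17 of Gs and Gi and 2 of 9 of desensitisation, beside 16.5% of all tested genes. The 5 genes of transport and inactivation had a median averaged genotype effect of 0.37, with 3 positive. Slco2a1, the prostaglandin transporter, was at 2.59 ± 0.979 CPM in WT vehicle, 2.87 ± 0.0933 in WT ifetroban, 9.53 ± 7.52 in KO vehicle and 4.86 ± 0.671 in KO ifetroban, with an averaged genotype effect of 1.31 ± 0.35 (edgeR adjusted p = 0.124; DESeq2 adjusted p = 0.00560), which was 0.72 without KO vehicle replicate 1. Ptgr2, a reductase that inactivates prostaglandins, was at -0.35 ± 0.14, and at -0.20 and -0.53 without KO vehicle replicates 1 and 2 in turn. Of the 17 genes of coupling through Gq and related G proteins 7 were positive in the averaged genotype effect, with a median of -0.01, and 0 had an unadjusted p under 0.05. The 17 genes of Gs, Gi and cyclic AMP had a median of 0.05. Adcy7, an adenylyl cyclase, was at 0.56 ± 0.13 (edgeR adjusted p = 0.0902; DESeq2 adjusted p = 0.0174). Pde4d, which breaks down cyclic AMP, was at -0.77 ± 0.25 (DESeq2 adjusted p = 0.0451). Adcy6, an adenylyl cyclase of heart muscle, was at -0.40 ± 0.14. The 9 genes of receptor desensitisation had a median of 0.09. Arrb2, which encodes an arrestin that uncouples receptors from G proteins, was at 0.84 ± 0.16 (edgeR adjusted p = 0.0580, DESeq2 adjusted p = 0.000744). The receptor kinase gene Grk5 was at 0.46 ± 0.18, or 0.29 without KO vehicle replicate 1. For this effect, edgeR with the replicate block called Arrb2 (adjusted p = 0.0263) and Pde4d (adjusted p = 0.0241, lower in KO). With length offsets it called Arrb2 (adjusted p = 0.0478) and Adcy7 (adjusted p = 0.0395). Without the filter on low counts, edgeR called Arrb2, Pde4d, Adcy7 and Slco2a1. In the averaged ifetroban effect, Pde4d, Pde3a and Adcy6 were at 0.62, 0.52 and 0.35, and Arhgef11 at 0.35, with 0 of the 61 genes called by edgeR (7 with an unadjusted p under 0.05, as had 5.11% of all tested genes, and 0 in DESeq2). With the class term these 4 values were 0.17, 0.20, 0.13 and 0.0941.

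**Figure D4:**
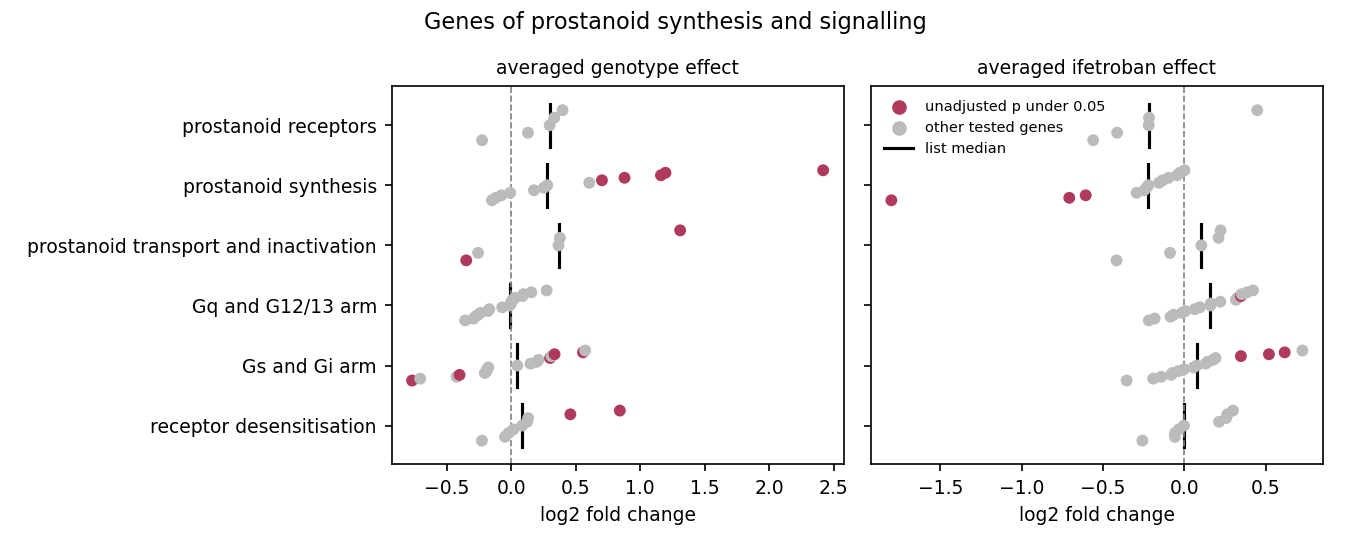
Log2 fold changes of the tested receptors and of 5 lists of pathway genes in the averaged genotype effect (left) and the averaged ifetroban effect (right), with each list's median as a bar; coloured points had an unadjusted p under 0.05. Of the 13 synthesis genes 9 are positive on the left and 1 on the right, and no point was called after adjustment in edgeR.

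Some other genes followed the receptors over the 9 libraries, which share their depth and length trends. Among 11362 protein-coding candidates (mean log2 CPM of 1 or more), those most alike Tbxa2r by Pearson correlation of log2 CPM were Pola2 (0.959), Rabggta (0.911) and Sept1 (0.897). For Ptgir they were Ttpal (0.974), Dlg4 (0.946) and Vkorc1l1 (0.940), and for Ptgfr Pias1 (0.956), Scrn1 (0.948) and Angpt1 (0.941). For Ptger4 they were Pgf (0.972), Kpna2 (0.968) and Txnl4a (0.968). Ptger4 had 95 candidates above 0.9, Ptgfr 49, Ptgir 9 and Tbxa2r 2. For Ptgfr, with 1 low library, the Spearman correlations with the same 3 genes were 0.683 to 0.700.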

How the data were processed

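The authors deposited raw read counts per gene, 1 file per library, with no normalization. Alignment and counting tools were STAR 2.5.2b and HTSeq, with GRCm38 as the build, per the submitters' processing notes; the annotation release is not given in the sources used here. Rows that name no gene held 26.6% to 31.9% of the reads and were left out. The reverse-strand column, with 14.5 times the counts of the forward one, was used. Of 49671 gene IDs 49412 were matched to GENCODE M21, which gave symbols, coordinates and exonic lengths. Replicates differed by more than sampling noise (chi-square 13.8 to 84.1 per degree of freedom).

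All genes entered 1 quasi-likelihood model (edgeR 4.0.16, R 4.3.3, F test, TMM, filterByExpr, 15261 genes, 1 coefficient per group, all 9 libraries, two-sided, Benjamini-Hochberg adjustment, called under 0.05). Standard errors were calculated back from the F statistic. DESeq2 1.42.0 and the other alternatives are in the closing section. TPM used exonic length. Poisson intervals and 3-count limits cover counting error only. The script was tested on simulated counts. Alternatives covered the low-count filter, the unstranded column, the replicate block, length offsets, a term for the length trend, only the groups compared and each library left out.

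The members and lists were chosen with earlier results of these data known. Named were all 8 receptors, up to 3 genes per pathway list with the smallest p under 0.05 in an averaged effect, and the 3 genes most alike each tested receptor except Ptger1, left out after its counts were seen to be uncertain. The limit of p under 0.05 for pathway names was added after the values were seen. Likeness used log2 CPM (prior count 2). Markers of 15 cell types were summed. A further result on the counts of Ptger1 is not reported here.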

Additional observations from a re-analysis of the deposited data

How the results depend on the processing

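The number of receptors called by edgeR stayed at 0 in each of the 7 contrasts under each alternative run, with 1 exception: without KO vehicle replicate 2 it was 1 between KO vehicle and WT vehicle (Ptgfr, -2.12, adjusted p = 0.0460), so leaving out 1 library gave 0 to 1 there. Of 416 refits of 25 receptor fold changes, 382 kept direction and side of the threshold and 33 turned sign; the cause was not tested. With the term for the class of length trend, Ptgir was at -0.17 for WT ifetroban against WT vehicle, and Ptger4 at -0.0372 for KO vehicle against WT vehicle, 0.0935 for KO ifetroban against KO vehicle and 0.022 for the averaged ifetroban effect. Ptgfr between KO ifetroban and WT ifetroban (-0.0012) was at 0.0089 in the unstranded column, 0.0405 with length offsets, 0.0296 with the class term and 0.00097 with KO vehicle replicate 1 left out together with the library labelled WT vehicle replicate 1. Without these 2 libraries Ptgir was at -0.10 and Ptger4 at 0.43 for WT ifetroban against WT vehicle, and Ptger4 at 0.12 for the averaged ifetroban effect. Ptgfr was then at 0.33 for KO vehicle against WT vehicle, -0.0639 for KO ifetroban against KO vehicle and 0.17 for the averaged genotype effect, and Ptgs2 at 0.40 for the averaged ifetroban effect.

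Leaving out 1 library at a time, Tbxa2r ranged from -0.17 to 0.73 between KO ifetroban and WT ifetroban, from -0.74 to 0.15 between WT ifetroban and WT vehicle and from -0.75 to 0.14 in the interaction. Ptgir ranged from -0.0109 to 0.24 between KO ifetroban and WT ifetroban and from -0.10 to 0.19 between WT ifetroban and WT vehicle. Ptger4 ranged from -0.39 to 1.26 between KO vehicle and WT vehicle, from -1.23 to 0.43 between WT ifetroban and WT vehicle and from -0.0209 to 0.81 in the averaged genotype effect. Ptgfr ranged from -2.12 to 0.29 between KO vehicle and WT vehicle, from -0.50 to 0.76 between KO ifetroban and WT ifetroban, from -0.063 to 2.35 between KO ifetroban and KO vehicle, from -0.53 to 0.72 between WT ifetroban and WT vehicle and from -1.06 to 0.15 in the averaged genotype effect. Tbxa2r kept its sign in each alternative run for KO vehicle against WT vehicle, KO ifetroban against KO vehicle and both averaged effects.

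With the replicate block, Tbxa2r was at -0.85 for KO ifetroban against KO vehicle and 0.58 for KO vehicle against WT vehicle, and no receptor was called; calls over all genes went from 8 to 45 between KO vehicle and WT vehicle and from 82 to 531 in the averaged genotype effect. The labels do not say that the numbers pair the libraries, and deviations of same-numbered libraries correlated at 0.00108 to 0.478, not all over 0.1. Counts of called genes depended on the tool: the averaged genotype effect had 82 in edgeR, 754 in DESeq2 and 2 to 2098 over all alternatives, KO vehicle against WT vehicle 8, 373 and 1 to 1734, and KO ifetroban against WT ifetroban 2, 69 and 1 to 428. KO ifetroban against KO vehicle had 0, 3 and 0 to 449. Alternatives for the pathway genes were added after seeing the data. Their averaged genotype effects ranged from 0.75 to 1.39 for Tbxas1, 0.92 to 1.40 for Ptgis and 0.56 to 1.62 for Slco2a1. The lowest edgeR adjusted p-values, 0.00021, 1.25e-10 and 1.68e-06, came from the fit without the filter on low counts (1684 genes called). With the filter, Ptgis was also called with the replicate block, so calls depended on the fit. The genotype effect on Pde4d ranged from -1.07 to -0.48. In the averaged ifetroban effect Ptgds ranged from -0.86 to -0.33 and Pde4d from 0.17 to 0.92. The levels per length were within 1 SD of those given, except Ptger4 at 3.62 TPM with the longest transcript and Ptger1 at 0.0855 TPM in the unstranded column. Depth limits Ptger2, Ptger3 and Ptgdr, which had 67, 36 and 0 reads in 9 libraries.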
